A study of Mus musculus with 12 samples.

Results

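The 8 genes followed here mark the contractile basal cells of the mammary gland and were read across all arrays of the series: the basal factor Trp63, the oxytocin receptor Oxtr, and the smooth muscle genes Acta2, Actg2, Myh11, Cnn1, Tagln and Mylk. They were found by matching the accession that the array design gives for each probe to a RefSeq table. That match gave 13 probes for the 8 genes, out of 41174 distinct probes on the array and 17178 distinct gene symbols. Acta2 had 3 probes, Trp63, Tagln and Mylk had a pair each, and the other genes had 1 probe each.

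The series comprised 12 one-dye Agilent arrays covering the mouse transcriptome. Mammary epithelial cells were present as adult and as reprogrammed samples, and so were lung epithelial cells, which made 4 groups of 3 arrays. The adult donor cells came from female mice 10 weeks old whose lungs and mammary glands were dissociated with trypsin and collagenase, then enriched by repeated washing and centrifugation; a cell sort is not mentioned. The protocols describe suspending cells in Matrigel for transplantation, and give no strain, allele or time for the reprogrammed groups. They do not say whether the organ in a reprogrammed sample's name is that of the donor cell or of the tissue that formed. Whether replicate arrays stand for different mice is not given either, so p-values measure only the spread between these arrays, which may be technical.

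Myoepithelial cells form the outer layer of mammary ducts and alveoli. They are epithelial cells that keep basal keratins and the p63 transcription factor, and they also build a smooth muscle contractile apparatus. Oxytocin binds its receptor on these cells, calcium rises, myosin light chain kinase phosphorylates the myosin light chain, and the cell contracts and expels milk. Smooth muscle of airways and vessels, and pericytes, carry much of the same apparatus without p63 or basal keratins. In lung, p63 marks basal cells of the large airways. The transcription of many smooth muscle genes runs through serum response factor, which binds the CArG box with coactivators of the myocardin family.

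The RefSeq promoter table (build GRCm38.p6) held 4 of the 8 genes: Oxtr, Acta2, Cnn1 and Mylk. Windows from 250 bases before to 50 bases after the annotated start were searched for the CArG box. This motif of 10 letters opens with CC, ends with GG and has only A or T as its central 6 letters. The search read both strands at once, because the motif's reverse complement has the same form. No window of these 4 genes held a perfect CArG box, which 1.63% of the 32851 promoters in the table held. With 1 G or C allowed among the central 6 letters, Acta2 alone of the 4 had a match, and it had 2, against 9.98% of all promoters with at least 1 and 0.822% with 2 or more. The Acta2 sequence upstream of the start is shown because 3 probes read this gene and because both matches lie in it. It spans chr19:34255374-34255623 on the minus strand, written 5′ to 3′, with the matches in capitals.

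Acta2 promoter: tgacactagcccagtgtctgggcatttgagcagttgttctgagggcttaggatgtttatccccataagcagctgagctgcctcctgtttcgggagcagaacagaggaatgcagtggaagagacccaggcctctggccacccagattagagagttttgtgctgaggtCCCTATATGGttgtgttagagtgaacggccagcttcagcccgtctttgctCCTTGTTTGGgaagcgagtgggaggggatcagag

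The first match, CCCTATATGG, runs from base -84 to base -75 before the annotated start, and the second, CCTTGTTTGG, from -34 to -25. Binding was not measured on these arrays, and the matches describe only the letters.

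Levels are given as log2 of the processed signal relative to the 75th percentile of the same array, so 0 is that percentile. Levels of different probes are not used to rank genes by amount. Sums and means over the probes of a list are compared only between arrays. All 13 probes were tested, because each was well above background on every array of at least 1 group. Between 72.1% and 91.2% of spots were well above background per array, the 75th percentile lay between 294 and 609 intensity units, and no spot was saturated. Reprogrammed lung replicate 1 and adult mammary replicate 4 had the narrowest signal ranges: the log2 distance between the outer deciles was 6.10 and 7.11, against 8.46 to 9.13 on the other 10 arrays. A difference was called where limma's adjusted p (Benjamini-Hochberg over all 31767 tested probes) was under 0.05. In these bulk samples fewer cells of a type and less RNA per cell cannot be told apart.

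**Figure D1:**
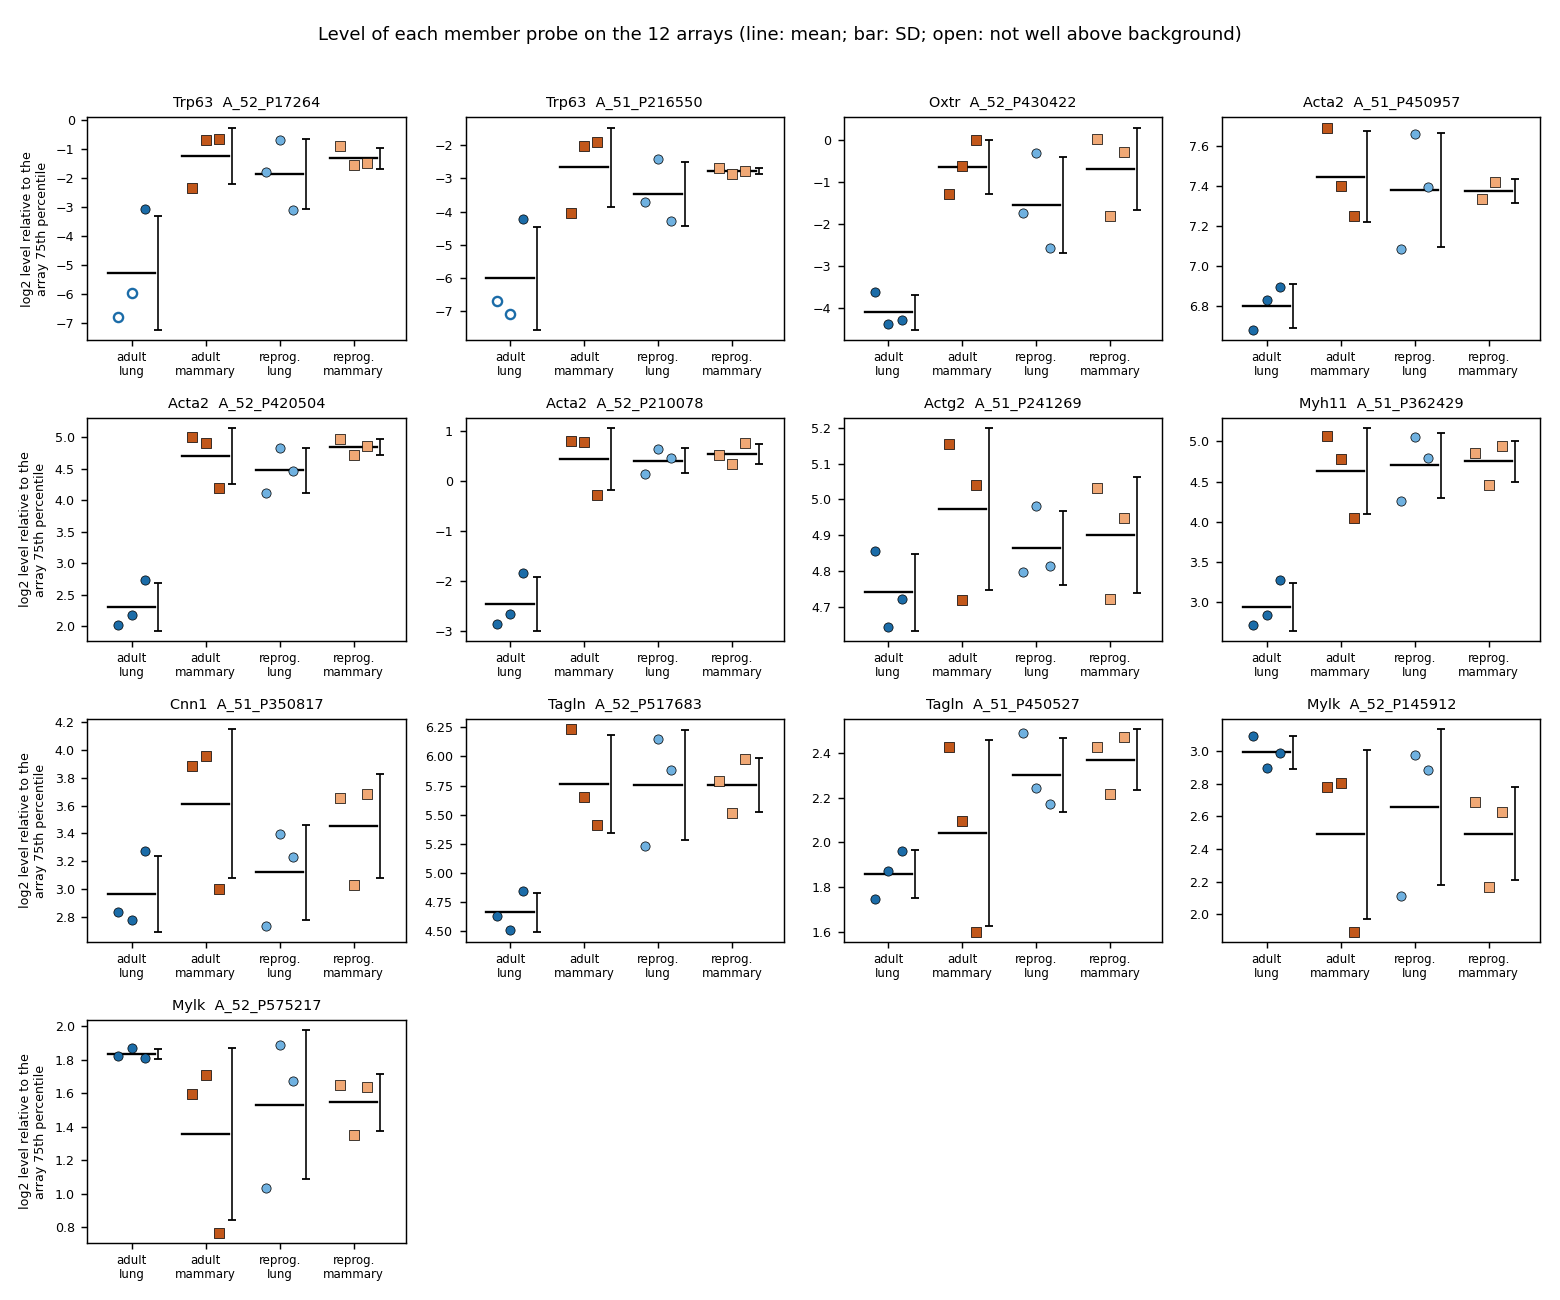
Log2 level of each of the 13 probes relative to the array's 75th percentile (y axis) in the 4 groups (x axis), 1 point per array, with the mean as a line, the SD as a bar, and open points for arrays on which the probe was not well above background. Adult lung lies below the other groups for Oxtr, all Acta2 probes, Myh11 and the first Tagln probe, and the groups overlap or lie close for Actg2, Cnn1 and Mylk.

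Trp63 encodes p63, the transcription factor that maintains basal epithelial cells. On probe A_52_P17264, the adult lung arrays read -6.82, -5.96 and -3.09, and the first 2 of these were not well above background. The adult mammary arrays read -2.37, -0.72 and -0.66. The reprogrammed lung arrays read -1.82, -0.72 and -3.12. Reprogrammed lung replicate 4 thus lay just below the highest adult lung array, so those groups overlapped at 1 point, while both mammary groups lay above all adult lung arrays. The reprogrammed mammary arrays read -0.92, -1.57 and -1.50. Trp63 was lower in adult lung than in adult mammary by a log2 difference of -4.04 ± 0.91 (SE; limma adjusted p = 0.00783). With the dim arrays raised to the lowest signal called above background, this was at least 8.24-fold. It was higher in reprogrammed than in adult lung, by 3.41 ± 0.91 (adjusted p = 0.0207), at least 5.30-fold on the same basis. The call in reprogrammed against adult lung was lost without adult lung replicate 1 (adjusted p = 0.0832), adult lung replicate 2 (0.0778) or reprogrammed lung replicate 3 (0.0726). Such bounds hold only for the processed signal. With normexp background correction the differences shrank to -0.89 between adult lung and adult mammary (limma adjusted p = 0.199) and 0.48 between reprogrammed and adult lung (0.564).

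The second Trp63 probe, A_51_P216550, read -6.69, -7.08 and -4.22 in adult lung, where again only replicate 3 was well above background. It read -4.03, -2.03 and -1.91 in adult mammary, and -3.70, -2.43 and -4.29 in reprogrammed lung. The reprogrammed mammary arrays read -2.67, -2.85 and -2.79, the narrowest spread of the 4 groups. The order of arrays was close to that of the first probe (Pearson r of 0.98 over the 12 arrays, a description). The difference between adult lung and adult mammary was -3.34 ± 0.79 (SE; limma adjusted p = 0.00995), and that between reprogrammed and adult lung 2.52 ± 0.79 (adjusted p = 0.0411). The latter call was lost without any one of adult lung replicates 1 and 2, adult mammary replicate 2, reprogrammed lung replicates 1 and 3, or the reprogrammed mammary replicates (adjusted p from 0.0511 to 0.15). With normexp background correction it turned to -0.27, and no Trp63 difference was called. Raising the dim arrays as for the first probe gave smaller lower bounds on the processed signal. These came to 4.03-fold for adult mammary over adult lung and 2.29-fold for reprogrammed over adult lung. The p-values of this probe come from the values as read and do not test those bounds.

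Adult lung replicate 3 carried other basal genes as well. Krt5, a keratin of basal cells in both airway and mammary gland, read -3.43, -2.88 and 3.14 on the 3 adult lung arrays, and between 2.29 and 2.97 in adult mammary. Acta1, the skeletal muscle actin, read -0.52, -0.56 and 2.00 on the same adult lung arrays. The part of these genes in the Trp63 values was not tested. Without replicate 3, no adult lung array was well above background for Trp63, so only bounds can be given. On the first probe adult mammary was then at least 12.5-fold higher than adult lung (limma adjusted p = 0.00131) and reprogrammed lung at least 8.02-fold higher (adjusted p = 0.00278). These p-values come from the fit of the values as read, without raising the dim arrays, and do not test the bounds. For the second probe, A_51_P216550, the corresponding bounds were lower, 4.7-fold for adult mammary and 2.67-fold for reprogrammed lung.

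Oxtr encodes the receptor through which oxytocin makes myoepithelial cells contract. Its single probe, A_52_P430422, was well above background on every array. The adult lung arrays read -3.62, -4.38 and -4.28. The adult mammary arrays read -1.28, -0.63 and -0.0026, and the reprogrammed mammary arrays 0.025, -1.81 and -0.29. The reprogrammed lung arrays read -1.75, -0.32 and -2.57, so all arrays of the other 3 groups lay above all adult lung arrays. Oxtr was lower in adult lung than in adult mammary by a log2 difference of -3.45 ± 0.62 (SE; limma adjusted p = 0.00227). It was higher in reprogrammed than in adult lung by 2.55 ± 0.62 (adjusted p = 0.0131), 5.85-fold. Without adult lung replicate 2 the adjusted p of the latter was 0.0501, and in the authors' deposited log2 values the difference was 1.51 (adjusted p = 0.0613). The processed signal of Oxtr in adult lung was low, at 14.1 to 25.3 intensity units. With normexp background correction the differences shrank to -1.24 between adult lung and adult mammary (limma adjusted p = 0.11) and 0.60 between reprogrammed and adult lung (0.49).

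Acta2 encodes the smooth muscle alpha actin, the main thin filament protein of myoepithelial and vascular smooth muscle cells. Adult lung was lowest on all 3 of its probes, by very different sizes, and the order of the other groups was not the same on each. The brightest, A_51_P450957, read 6.68, 6.83 and 6.90 in adult lung and 7.69, 7.40 and 7.25 in adult mammary. It read 7.09, 7.66 and 7.40 in reprogrammed lung, and 7.34 and 7.42 in reprogrammed mammary, where the spot of replicate 2 was marked as an outlier and left out. All arrays of the other groups lay above all adult lung arrays. Adult lung was lower than adult mammary by a log2 difference of -0.65 ± 0.19 (SE; limma adjusted p = 0.0319), 1.57-fold, and the difference between reprogrammed and adult lung, 0.58 ± 0.19, missed the threshold (adjusted p = 0.0566). Leaving out reprogrammed lung replicate 1 brought the latter to 0.73 (adjusted p = 0.0153), while the former lost its call without any one of the adult lung arrays, adult mammary replicates 1 and 2, or reprogrammed mammary replicates 1 and 3 (adjusted p from 0.0504 to 0.105).

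The second Acta2 probe, A_52_P420504, read 2.01, 2.18 and 2.73 in adult lung. It read 5.00, 4.90 and 4.19 in adult mammary, 4.12, 4.84 and 4.46 in reprogrammed lung, and 4.97, 4.71 and 4.86 in reprogrammed mammary. The lowest of those 9 arrays, reprogrammed lung replicate 1, stood well above the highest adult lung array. The difference between adult lung and adult mammary was -2.39 ± 0.28 (SE; limma adjusted p = 0.000202), 5.25-fold. The difference between reprogrammed and adult lung was 2.17 ± 0.28 (adjusted p = 0.000393), 4.49-fold.

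The dimmest Acta2 probe, A_52_P210078, read -2.86, -2.66 and -1.84 in adult lung. It read 0.80, 0.79 and -0.27 in adult mammary, 0.15, 0.64 and 0.46 in reprogrammed lung, and 0.53, 0.35 and 0.76 in reprogrammed mammary. The groups were again split between adult lung and the rest, with adult mammary replicate 4 the lowest of the other 9 arrays. The difference between adult lung and adult mammary was -2.89 ± 0.34 (SE; limma adjusted p = 0.000218), 7.43-fold. The difference between reprogrammed and adult lung was 2.87 ± 0.34 (adjusted p = 0.000253), 7.31-fold. Over the arrays, the second and the dimmest probe had a Pearson r of 0.99 (12 arrays) and the first had 0.93 with the second (11 arrays), as a description. The processed signal of the brightest probe lay between 31917 and 103000 intensity units, that of the second between 1253 and 18191, and that of the dimmest between 42.8 and 1054, so the measured size of the Acta2 difference in these data depends on which probe is read. Why the probes differ was not tested.

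Myh11 encodes the smooth muscle myosin heavy chain, the motor that pulls on those actin filaments. Its probe, A_51_P362429, read 2.70, 2.83 and 3.27 in adult lung and 5.07, 4.78 and 4.04 in adult mammary. It read 4.25, 5.06 and 4.79 in reprogrammed lung and 4.86, 4.46 and 4.94 in reprogrammed mammary. Every array of those 3 groups lay above every adult lung array. Adult lung was lower than adult mammary by -1.70 ± 0.30 (SE; limma adjusted p = 0.00228), 3.24-fold, and lower than reprogrammed lung by the difference 1.77 ± 0.30 (adjusted p = 0.00214), 3.40-fold.

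Tagln encodes transgelin, an actin-binding protein of smooth muscle. Probe A_52_P517683 read 4.63, 4.51 and 4.84 in adult lung and 6.23, 5.65 and 5.41 in adult mammary. It read 5.23, 6.15 and 5.89 in reprogrammed lung and 5.79, 5.51 and 5.98 in reprogrammed mammary. Adult lung lay below all other arrays, with a difference from adult mammary of -1.11 ± 0.28 (SE; limma adjusted p = 0.0131) and a rise in reprogrammed over adult lung of 1.096 ± 0.28 (adjusted p = 0.016). The former call was lost without adult lung replicate 2 (adjusted p = 0.0522). The latter also rested on single arrays: without adult lung replicate 2 the adjusted p was 0.0615, without adult lung replicate 1 it was 0.052, and without reprogrammed lung replicate 3 it was 0.0547.

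The other Tagln probe, A_51_P450527, did not show that pattern. It read 1.75, 1.87 and 1.96 in adult lung, 2.43, 2.10 and 1.60 in adult mammary, 2.49, 2.24 and 2.17 in reprogrammed lung, and 2.43, 2.22 and 2.47 in reprogrammed mammary. Adult mammary spanned the adult lung values, and the difference between them was -0.18 (95% interval -0.65 to 0.28; limma adjusted p = 0.557). Both reprogrammed groups lay above adult lung without overlap, but neither difference was called, at 0.44 (adjusted p = 0.161) for lung and 0.51 (adjusted p = 0.0996) for mammary cells.

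Actg2, the gamma actin of visceral smooth muscle, moved little. Its probe read 4.86, 4.65 and 4.72 in adult lung, 5.16, 4.72 and 5.04 in adult mammary, 4.80, 4.98 and 4.82 in reprogrammed lung, and 5.03, 4.72 and 4.95 in reprogrammed mammary. All groups overlapped, and adult lung differed from adult mammary by -0.23 (95% interval -0.59 to 0.13; limma adjusted p = 0.326).

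Cnn1 encodes calponin, an actin-binding protein that restrains myosin's ATPase. It read 2.84, 2.78 and 3.28 in adult lung, 3.89, 3.95 and 3.00 in adult mammary, 2.74, 3.39 and 3.23 in reprogrammed lung, and 3.66, 3.03 and 3.68 in reprogrammed mammary. A single array, adult mammary replicate 4, overlapped with adult lung. The difference between adult lung and adult mammary was -0.65 ± 0.30 (SE; limma adjusted p = 0.138) with that array, and -0.95 (adjusted p = 0.0352) without it. Reprogrammed lung differed from adult lung by 0.15 (95% interval -0.52 to 0.83).

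Mylk, the myosin light chain kinase that triggers contraction, had the opposite sign from the other genes in adult lung. Probe A_52_P145912 read 3.09, 2.89 and 2.99 in adult lung, 2.78, 2.80 and 1.89 in adult mammary, 2.11, 2.98 and 2.88 in reprogrammed lung, and 2.69, 2.17 and 2.63 in reprogrammed mammary. Probe A_52_P575217 read 1.82, 1.87 and 1.81 in adult lung, 1.60, 1.71 and 0.77 in adult mammary, 1.03, 1.89 and 1.67 in reprogrammed lung, and 1.65, 1.35 and 1.64 in reprogrammed mammary. On both probes the adult lung arrays lay above all adult mammary arrays, yet the differences, 0.50 (95% interval -0.16 to 1.17; limma adjusted p = 0.241) and 0.48 (adjusted p = 0.228), were not called. The lowest value of each probe was on adult mammary replicate 4.

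Over the 13 probes, 8 were lower in adult lung than in adult mammary and none was called higher, against 29.3% of all tested probes called in either direction (12.8% higher and 16.5% lower in lung). The 8 belonged to 5 of the 8 genes: Trp63, Oxtr, Acta2, Myh11 and Tagln. The median difference of the 13 was -1.11, against -0.02 over all tested probes. Their groups did not overlap on 10 probes, against 53.1% of all probes: 8 had mammary above, against 28.7%, and 2 had lung above, against 24.4%. In reprogrammed against adult lung, 7 of the 13 rose and none fell, against 23.8% of all probes called (13.9% higher and 9.85% lower). The median of the 13 was 1.096, against 0.09 over all probes, and 7 probes had all reprogrammed arrays above all adult arrays, against 21.1% of all probes (15.6% had them below, 36.7% in either direction). Reprogrammed mammary against adult lung also gave 7 of 13 higher, against 26.9% of all probes called (15% higher and 11.9% lower). Of the 13, 9 had all reprogrammed mammary arrays above, against 31.1% of all probes, and 2 had them below, against 26.4% (57.4% in either direction). These comparisons share the 3 adult lung arrays, so low values there move all of them together. The 7 rises in reprogrammed lung became 3 without adult lung replicate 2, 4 without adult lung replicate 1, 4 without reprogrammed lung replicate 3, and 7 without both narrow-range arrays, where the second Trp63 probe lost its call (adjusted p = 0.0582) and the brightest Acta2 probe gained one (0.0131).

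Between the 3 groups other than adult lung, no probe of the 8 genes passed the test. Reprogrammed mammary against adult mammary gave 0 of 13 called by limma and 0 at an unadjusted p under 0.05, against 0.00315% of all tested probes, a single probe. Reprogrammed lung against adult mammary gave 0 of 13 and 0 unadjusted, against 0.0252% (8 probes), and against reprogrammed mammary 0 of 13 and 0 unadjusted, against 0.00315%. All 13 probes overlapped in each of these comparisons, where 23.6%, 11.4% and 13.2% of all probes did not. The intervals still allowed sizeable differences for the most variable genes. Trp63 (A_52_P17264) differed between reprogrammed and adult mammary by -0.08 (95% interval -2.10 to 1.94), and Oxtr by -0.05 (-1.42 to 1.31). For Acta2 (A_52_P420504) the interval was narrower, at 0.15 (-0.46 to 0.76), and for Myh11 it was 0.12 (-0.55 to 0.79). Reprogrammed lung differed from adult mammary by -0.91 for Oxtr (-2.28 to 0.46) and by 0.07 for Myh11 (-0.60 to 0.74).

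**Figure D2:**
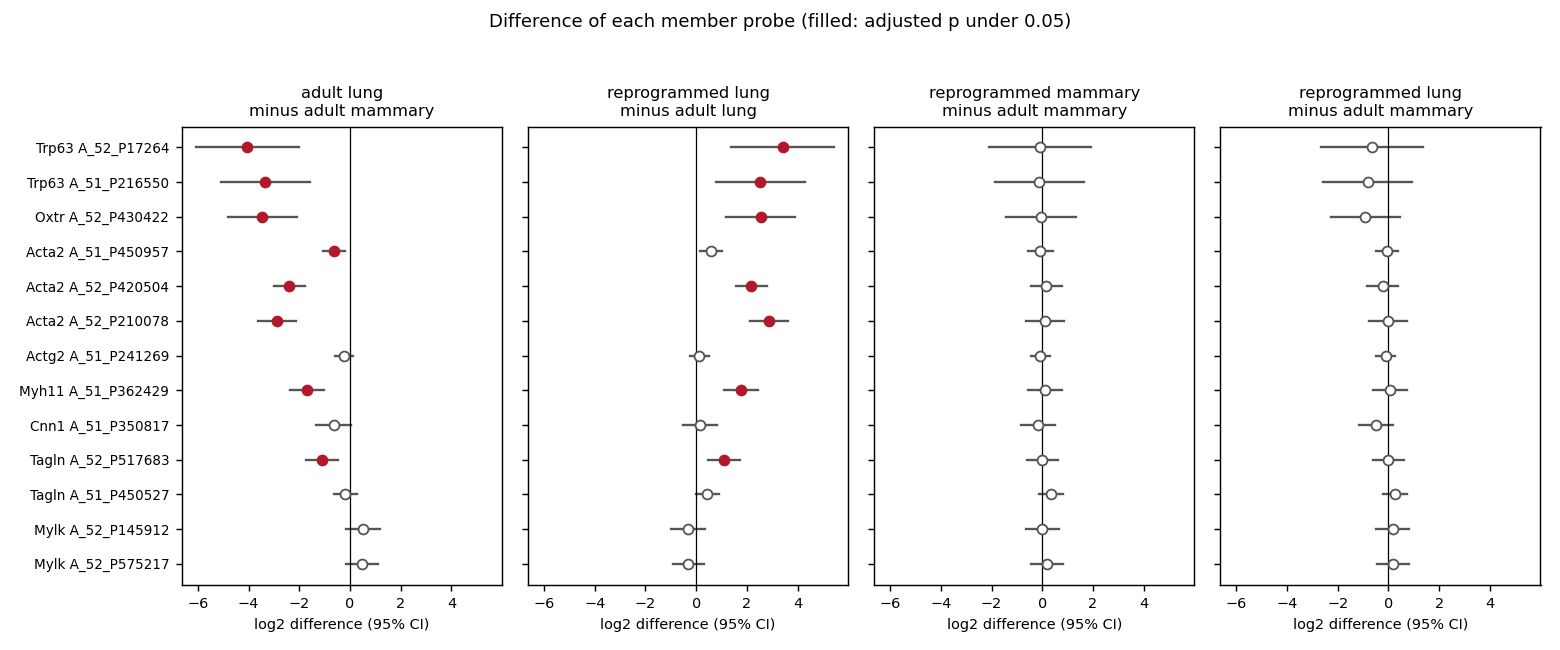
Log2 difference (x axis) of each of the 13 probes (y axis) in 4 comparisons, with the 95% confidence interval as a line and filled points where limma's adjusted p was under 0.05. In the first panel 8 points are filled to the left of 0, in the second 7 to the right, and none in the other panels.

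Whether the change from adult to reprogrammed cells differed between the organ names was tested as a contrast in the same fit, for which 13.2% of all probes were called (7.61% higher in lung and 5.58% lower). Of the 13 probes, 3 were called, all with the larger rise in lung. Acta2 gave 2.02 ± 0.39 (SE; limma adjusted p = 0.00885) on A_52_P420504 and 2.76 ± 0.48 (adjusted p = 0.00532) on A_52_P210078. Myh11 gave 1.65 ± 0.43 (adjusted p = 0.031). With slide as a block in the fit the values were 1.95 (adjusted p = 0.0627), 2.70 (0.0502) and 1.57 (0.125), nearly as large but not called. Myh11 also lost its call without any one of adult lung replicates 1 and 2, adult mammary replicates 1 and 2, reprogrammed lung replicate 3 or the reprogrammed mammary arrays (adjusted p from 0.0529 to 0.0769). Trp63 gave 3.49 ± 1.29 (adjusted p = 0.105) and Oxtr 2.60 ± 0.87 (adjusted p = 0.0778), so the test of that difference was not passed for them with all arrays. Without adult lung replicate 3 both Trp63 probes were called (limma adjusted p = 0.0194 and 0.0393), without reprogrammed lung replicate 4 Oxtr was (0.0342), and without reprogrammed lung replicate 1 Tagln on A_52_P517683 was (0.0191). With any 1 array left out, the count of called probes ran from 2 to 5.

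The arrays lay on 5 slides, and every slide held more than 1 group. On slide 1, the adult lung array minus the adult mammary array gave -2.99 for Oxtr, -2.89 for Acta2 (A_52_P420504), -2.08 for Myh11 and -1.02 for Tagln (A_52_P517683). Trp63 (A_52_P17264) was not well above background on that adult lung array and was at least 14.5-fold higher on the adult mammary array. Reprogrammed minus adult lung could be read on slides 1, 3 and 5. It was 3.30, 2.53 and 1.81 for Oxtr, and 2.82, 1.39 and 2.29 for Acta2 on the same probes. It was 2.35, 0.99 and 1.96 for Myh11 and 1.52, 0.39 and 1.38 for Tagln. For Trp63 it was 1.28 on slide 3, and reprogrammed lung was at least 14.5-fold higher on slide 1 and at least 4.23-fold higher on slide 5. The second Trp63 probe, A_51_P216550, gave 0.52 on slide 3, with lower bounds of 4.45-fold on slide 1 and 1.88-fold on slide 5. Slide 3 held the smallest value for Acta2, Myh11 and Tagln, and it paired adult lung replicate 3 with reprogrammed lung replicate 1. With slide as a block over all arrays, the difference between adult lung and adult mammary was no longer called for Trp63 on A_52_P17264 (-4.61, limma adjusted p = 0.0516), Acta2 on A_51_P450957 (-0.52, adjusted p = 0.378), Myh11 (-1.56, adjusted p = 0.071) and Tagln (-0.81, adjusted p = 0.226). In reprogrammed against adult lung the slide block left 5 of the 13 probes called: Tagln on A_52_P517683 (adjusted p = 0.0531) and Trp63 on A_51_P216550 (0.0604) lost their calls with the same differences. In reprogrammed mammary against adult lung it also left 5, and Myh11 (1.76, adjusted p = 0.0558) and Tagln (0.87, adjusted p = 0.209) lost theirs.

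Other genes of the contractile apparatus split in direction. Of 20 tested smooth muscle genes outside the 8, 6 were lower in adult lung than in adult mammary and 3 higher. The shares of all probes were 16.5% and 12.8%, and the median difference of the 20 was -0.32. The 3 largest called differences were Pdlim3, a LIM protein of the Z line, at -2.10 (SE 0.70; limma adjusted p = 0.0447), the tropomyosin Tpm2 at -1.76, and Ppp1r14a, an inhibitor of myosin phosphatase, at 1.57. Reprogrammed against adult lung gave 5 higher and 3 lower, against 13.9% and 9.85% of all probes, with a median of 0.29. The largest were Lmod1, which nucleates actin filaments in smooth muscle, at 1.92 (SE 0.32; adjusted p = 0.00169), Mrvi1, a target of cGMP-dependent kinase, at 1.77, and Tpm2 at 1.68. Desmin (Des), the intermediate filament of muscle, fell by 1.09 (adjusted p = 0.0073). The same list gave 0 of 20 called by limma, and 0 at an unadjusted p under 0.05, in reprogrammed against adult mammary.

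**Figure D3:**
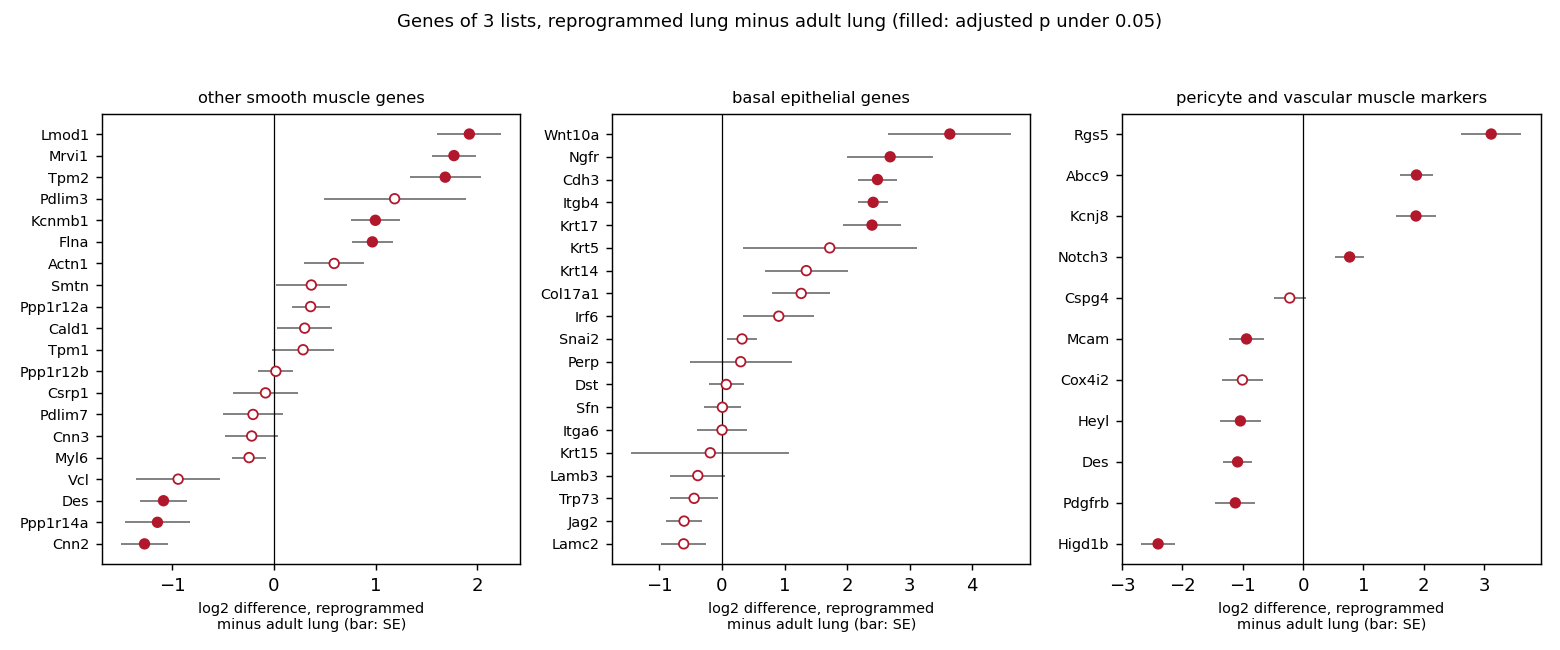
Log2 difference of reprogrammed minus adult lung (x axis; bars are SE) for each tested gene (y axis) of 3 lists, with filled points where limma's adjusted p was under 0.05. Smooth muscle genes outside the 8 range from Cnn2 at -1.27 to Lmod1 at 1.92, basal genes are called only to the right of 0, and pericyte and vascular muscle markers are called on both sides.

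Among regulators of smooth muscle genes, 7 of the serum response factor list were tested. In adult lung against adult mammary 1 was lower, where 29.3% of all probes were called: Fhl2, a LIM protein that binds serum response factor, at -2.87 (SE 0.47; limma adjusted p = 0.00145). Between reprogrammed and adult lung 3 of the 7 were called, against 23.8% of all probes. Fhl2 rose by 2.24 (adjusted p = 0.00652) and the coactivator Myocd by 1.33 (adjusted p = 0.0413), while Tead1 fell by 0.86 (adjusted p = 0.00618). Myocd read -2.89, -2.52 and -2.08 in adult lung and -1.21, -1.41 and -0.87 in reprogrammed lung, without overlap. Of all probes, 21.1% had all reprogrammed lung arrays above all adult lung arrays. In adult mammary Myocd read -0.43, -1.33 and -2.38, and adult lung against adult mammary was not called (-1.12, limma adjusted p = 0.0685). The reprogrammed mammary arrays read -2.10, -2.31 and -1.87 and overlapped with adult lung (0.40, adjusted p = 0.537).

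A further list held genes that carry the oxytocin signal to myosin. Of 20 tested genes, 4 were higher and none lower in adult lung than in adult mammary, against 12.8% and 16.5% of all probes, among them the phospholipases Plcb1 at 1.204 (SE 0.27; limma adjusted p = 0.0075) and Plcb4 at 0.67. The comparison of reprogrammed with adult lung gave 6 lower and 1 higher, against 9.85% and 13.9% of all probes. The largest were Plcb1 at -1.54 (adjusted p = 0.00233), the IP3 receptor Itpr3 at 1.27, and the G protein subunit Gnaq at -1.21. Of the 4 tested actin genes outside the 8, only Actg1 was called, lower in adult lung than in adult mammary at -1.005 (adjusted p = 0.0317). Of all probes, 29.3% were called in that comparison.

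Basal epithelial genes without a contractile role were read beside Trp63. Of 19 tested, 8 were lower in adult lung than in adult mammary and none higher, against 16.5% and 12.8% of all probes, with a median of -1.97. Among them were the keratins Krt17 at -4.12 and Krt14 at -3.40. Wnt10a, a Wnt ligand, was well above background on 1 of the 3 adult lung arrays, and was at least 14.5-fold lower there than in adult mammary (limma adjusted p = 0.00309). The p-values given for Wnt10a come from the fit of the values as read and do not test the bounds. In reprogrammed against adult lung the share called was near the 23.8% of all probes called there in either direction. Of the 19 genes, 5 rose and none fell, against 13.9% and 9.85% of all probes, with a median of 0.32. They included the neurotrophin receptor Ngfr at 2.69, P-cadherin (Cdh3) at 2.49, and Wnt10a, at least 4.85-fold higher in reprogrammed lung (adjusted p = 0.022). Ngfr also read higher in reprogrammed than in adult mammary, by 2.61, which was not called (limma adjusted p = 0.244). Krt5 and Krt14, the basal keratins that define the mammary basal layer, were not among the genes called higher in reprogrammed lung. Krt14 read 0.43, 0.48 and 2.34 in adult lung and 1.22, 3.52 and 2.56 in reprogrammed lung, and Krt5 read -0.0051, 2.00 and 0.0062 in reprogrammed lung. The mean log2 level over the 19 genes ran from -1.17 to 0.18 in adult lung, from -0.21 to 0.54 in reprogrammed lung, from 0.83 to 1.32 in adult mammary and from 0.59 to 1.00 in reprogrammed mammary.

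Markers of pericytes and vascular smooth muscle, which also express Acta2, Myh11 and Tagln, moved in both directions. Of 11 tested, 5 were higher and 3 lower in adult lung than in adult mammary, against 12.8% and 16.5% of all probes. The largest were Rgs5 at -3.55 (SE 0.50; limma adjusted p = 0.000616), Higd1b at 2.75 and Abcc9 at -2.08. In reprogrammed against adult lung 4 rose and 5 fell, against 13.9% and 9.85% of all probes. They were led by Rgs5 at 3.12 (adjusted p = 0.00151), Higd1b at -2.40 and Abcc9 at 1.88. Rgs5, a pericyte regulator of G protein signalling, read -2.51, -2.63 and -0.86 in adult lung and 1.59, 1.31 and 0.46 in reprogrammed lung, and all 11 markers were well above background on every array. The summed linear level of the 11 ran from 64.7 to 65.4 in adult lung, 26.7 to 57.1 in adult mammary, 37.7 to 48.6 in reprogrammed lung and 42.6 to 49.2 in reprogrammed mammary. The mean log2 level of the 11, which bright probes weigh on less, showed no such order: it ran from 0.69 to 0.92 in adult lung, 0.18 to 1.09 in adult mammary, 0.71 to 0.88 in reprogrammed lung and 0.63 to 0.88 in reprogrammed mammary. Rgs5, Abcc9 and the potassium channel gene Kcnj8 (-1.47 and 1.87 in the same comparisons) were called in both with the same signs as Acta2 and Myh11. Pdgfrb, Higd1b, Mcam and Des were called in both with the opposite signs. The part of pericytes and vascular smooth muscle in the Acta2, Myh11 and Tagln values was not tested.

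Markers of other cell types differed more. Of 11 mammary luminal markers, 10 were lower in adult lung than in adult mammary and 9 rose in reprogrammed against adult lung. The shares of all probes were 16.5% and 13.9%. The epithelial adhesion molecule Epcam was lower by -3.82 (limma adjusted p = 0.0015), and rose in reprogrammed lung by 2.69 (adjusted p = 0.0114). The summed level of the luminal markers was 21.8 to 28.1 in adult lung, 291 to 318 in adult mammary, 289 to 323 in reprogrammed mammary, and 49.2, 369 and 250 on reprogrammed lung replicates 1, 3 and 4. Their mean log2 level, which bright probes weigh on less, was 3.45 to 3.76 in adult mammary. On the same reprogrammed lung arrays the mean was 1.03, 3.51 and 3.47. Of 8 endothelial markers, 7 were higher in adult lung than in adult mammary and 7 fell in reprogrammed lung. The shares of all probes were 12.8% and 9.85%. The summed endothelial levels were 149 to 168 in adult lung and 19.3 to 53.1 in the other groups. The samples labelled as epithelial cells thus carried endothelial markers in all groups. B-cell markers were not called (0 of 7 tested in both comparisons, where 29.3% and 23.8% of all probes were). Their summed level was 92.1 on reprogrammed lung replicate 1 against 1.09 and 2.05 on the other reprogrammed lung arrays. On that array Acta2 (A_52_P420504), Myh11 and Tagln (A_52_P517683) were the lowest of their group. The same held for the arrays with the highest B-cell sums in the mammary groups. These were adult mammary replicate 4 (9.88, against 1.27 and 1.08) and reprogrammed mammary replicate 2 (15.3, against 5.82 and 1.35). In adult lung the highest sum, 5.75 on replicate 2, went with the lowest value for Tagln only. The part of B cells in these values was not tested. Without reprogrammed lung replicate 1, the differences between reprogrammed and adult lung were 2.34 for Acta2 (A_52_P420504) and 1.99 for Myh11, and both were called.

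The remaining lists held a few called genes each. In adult lung against adult mammary, where 29.3% of all probes were called, fibroblast markers gave 1 higher and 3 lower of 10, cardiac muscle markers 2 higher and none lower of 7, skeletal muscle markers 1 higher and none lower of 8, and airway basal markers 2 higher and 1 lower of 6. In reprogrammed against adult lung, where 23.8% were called, fibroblast markers gave 3 higher and 1 lower, cardiac 2 lower, skeletal 1 lower, and airway basal 1 higher and 2 lower. The summed level of the 9 fibroblast markers with a value on all arrays was 343 on reprogrammed lung replicate 4. It was 99.3 and 96.7 on replicates 1 and 3 of that group. On replicate 4 both Trp63 probes and Oxtr were the lowest of their group, and the part of fibroblasts in those values was not tested.

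**Figure D4:**
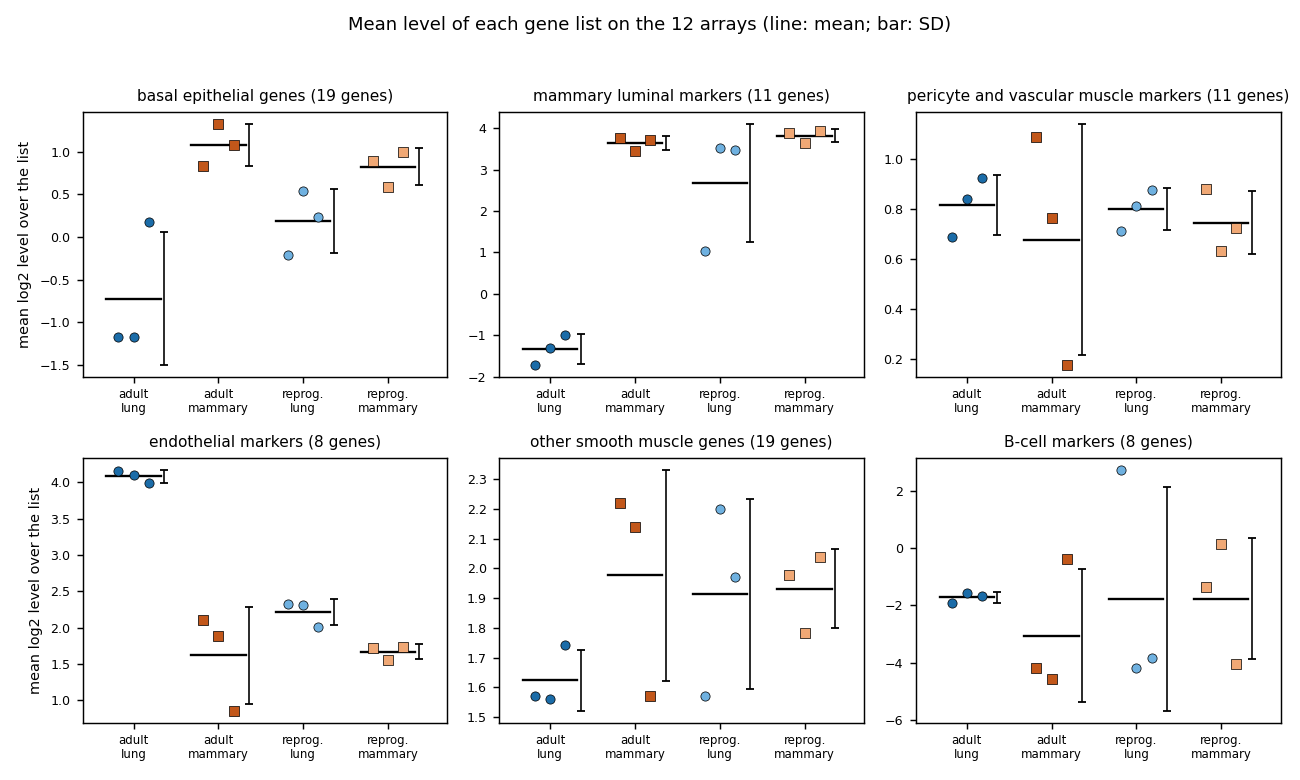
Mean log2 level (y axis) over each of 6 gene lists in the 4 groups (x axis), 1 point per array, with the mean as a line and the SD as a bar, over the genes with a value on all arrays. Luminal markers are lowest and endothelial markers highest in adult lung, adult lung replicate 3 stands above its group for basal genes (0.18), and reprogrammed lung replicate 1 stands above its group for B-cell markers (2.73).

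The tested probes of other named genes that tracked each gene most closely over the arrays were listed by Pearson correlation of the log2 levels. The arrays share their groups and slides, so the correlations are a description. For Trp63 these were Bdh1 (r = 0.98), Fyttd1, Mccc1, Xk and Zfp750 (r = 0.96) over 12 arrays. For Oxtr they were Gapdhs (r = 0.98), Eml5, Tom1l1 and Unc5cl (r from 0.96 to 0.97). For the brightest Acta2 probe they were Pogk and Tagln (r = 0.98 each), Itga7, Arg1 and Wnt5b (r from 0.96 to 0.97) over 11 arrays. For Myh11 they were Acta2 (A_52_P210078, r = 0.98), Kank1, P2rx1, Tpm2 and Mrvi1 (r = 0.98).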

How the data were processed

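Messenger RNA of 12 samples was read on Agilent arrays with Cy3. Per the file headers, the deposited scanner files come from Agilent Feature Extraction 10.5.1.1, while the submitters' processing notes name version 10.1. Their processed signal is an intensity after background subtraction, per the file headers. The authors' deposited series matrix holds log2 values, with a normalization that the sources used here leave unnamed; they served as an alternative. Outlier-marked spots (91 to 280 per array) were left out, which left 357 tested probes without a value on some array, spots of a probe were averaged, and log2 signals were set relative to each array's 75th percentile. The fit used limma 3.58.1 (R 4.3.3) over all 12 arrays, with no covariate, and tested on simulated data first. A probe was tested if well above background on all arrays of at least 1 group, which kept 31767. For counts by gene in the lists, the probe with the highest mean stood for the gene. By rule the text names all 8 genes with every probe, the 3 largest called differences of each other list, defining markers of other cell types, and the 5 genes most alike Trp63, Oxtr, Acta2 and Myh11. Some genes that this rule names are not reported here. Des, Cnn2, Kcnj8, Pdgfrb, Mcam and Tead1 in reprogrammed lung were named after their values were seen. The genes and lists were chosen with earlier results of these data known. Alternatives were other background corrections, scalings and filters, the authors' values, slide or replicate number as a block, and arrays left out. The number of arrays limits the precision. Figures were drawn with matplotlib.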

Additional observations from a re-analysis of the deposited data

Results flagged for a closer look

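The change from adult to reprogrammed cells differed between lung and mammary by the limma contrast for 3 probes. The difference of the changes was 2.02 for Acta2 on A_52_P420504, 2.76 for Acta2 on A_52_P210078 and 1.65 for Myh11. The underlying changes in lung were 2.17, 2.87 and 1.77, and those in mammary 0.15, 0.11 and 0.12. No group had more than 3 arrays, so single arrays were not tested as outliers.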

How the results depend on the processing

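The 2 dimmer Acta2 probes kept their direction and their call, in adult lung against adult mammary and in reprogrammed against adult lung, under every alternative fit and with any array left out. Myh11 did so in reprogrammed against adult lung. Calls of other genes moved too, and only part of those changes are given, above and here. In reprogrammed mammary against adult lung, Mylk on A_52_P145912 was called without both narrow-range arrays (-0.50, limma adjusted p = 0.0381), and Tagln on A_51_P450527 was called in 4 settings (adjusted p from 0.0169 to 0.0491). Tagln on A_52_P517683 was not called in the authors' values against adult lung in either reprogrammed group (adjusted p = 0.0564 and 0.106). The cause was not tested.

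Normexp background correction on the median signal, chosen after seeing the data because the files hold no mean signal, turned the second Trp63 probe (A_51_P216550) to -0.27 in reprogrammed against adult lung and -0.088 in reprogrammed mammary against adult lung, and no Trp63 or Oxtr difference was called. Over all probes it called 6194 between adult lung and adult mammary (9308 in the main setting), 3700 between reprogrammed and adult lung (7557), 1543 for the difference of the changes (4187), and 0 in the comparisons among the other 3 groups. It moved the median of all probes to 0.32 for adult lung against adult mammary, with 3840 higher and 2354 lower (4054 and 5254 in the main setting), and to -0.21 for reprogrammed against adult lung, with 1373 higher and 2327 lower (4429 and 3128). For reprogrammed mammary against adult lung it gave -0.29, with 2397 higher and 3537 lower (4759 and 3771). Quantile normalization gave 3464 higher and 3599 lower for reprogrammed against adult lung, and the authors' deposited values 3294 and 3882.

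With slide as a block, 3712 probes were called between adult lung and adult mammary, 3353 between reprogrammed mammary and adult lung (8530 in the main setting) and 1691 for the difference of the changes. Fitting only the groups compared gave 4141 for reprogrammed against adult lung and 14170 for reprogrammed mammary against adult lung. Leaving out both narrow-range arrays gave 7514 for the difference of the changes, 122 for reprogrammed against adult mammary, 7 between the reprogrammed groups, and 18 where reprogrammed lung was set against adult mammary.

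Further fits of the comparisons among the 3 groups other than adult lung gave these counts. Reprogrammed against adult mammary (1) gave 0 with quantile normalization or the slide block, 2 with only its groups, 3 in the authors' values and 9 with probes above background on all arrays. Reprogrammed lung against adult mammary (8) gave 0 with the slide block or only its groups, 2 with no filter, 3 in the authors' values and 5 with 1 probe per gene. The reprogrammed groups (1) gave 0 with quantile normalization, the authors' values, probes above background on all arrays, the slide block or only their groups.

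Leaving out 1 array at a time gave 1 to 61 probes for reprogrammed against adult mammary (61 without reprogrammed lung replicate 1), 2 to 359 for reprogrammed lung against adult mammary and 0 to 175 between the reprogrammed groups (359 and 175 without reprogrammed lung replicate 4). The difference of the changes gave 2490 (without adult lung replicate 2) to 6964 (without reprogrammed lung replicate 1).

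With the replicate number as a block, 4916 probes were called between reprogrammed and adult lung, 1535 for the difference of the changes, and 0 in each comparison among the other 3 groups. Oxtr (adjusted p = 0.051 by limma), Tagln on A_52_P517683 (0.0509) and Trp63 on A_51_P216550 (0.0703) were then not called in reprogrammed against adult lung. Same-numbered arrays correlated between -0.53 and 0.32 in their deviations from the group means, so the numbers were not shown to pair the samples.

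Trp63 lay near background on 2 adult lung arrays, so the size of its differences depends on how background is treated. Oxtr was dim in adult lung, and the size of its differences also depended on the background treatment. With 3 arrays per group, the intervals among the other groups remained wide for Trp63 and Oxtr.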
